A study of Mus musculus with 9 samples.

Results

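Transcripts of the ATF4 arm of the integrated stress response were followed through 10 genes in BV2 cells, an immortalized mouse microglial line. The choice was made by symbol from what is known of the pathway, with earlier results of these data already known. The genes were Atf4, Atf3, Ddit3, Trib3, Chac1, Sesn2, Asns, Psat1, Phgdh and Mthfd2. They are 10 of the 55906 entries in the deposited expression table, and all 10 were among the 11260 genes tested. The RNA-seq series held 9 libraries in 3 groups of 3, named LPS+Pilo, LPS and Control after the treatment given in the labels. LPS is lipopolysaccharide, the bacterial cell-wall component that activates microglia. Pilo is not spelled out in the sample labels, with dose and time of both agents not given in the sources used here. All 3 groups were wildtype BV2 cells, and the labels give no agent for Control cells; no group had Pilo alone. The libraries are called biological replicates, but no label ties them to independent cultures. A p-value therefore covers only the spread among these libraries. A single immortalized line stands in for microglia, and bulk RNA cannot tell fewer responding cells from less RNA per cell.

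In the integrated stress response, a family of stress-sensing kinases phosphorylates the translation initiation factor eIF2. General protein synthesis then slows, while translation of the Atf4 mRNA increases through its upstream reading frames. The ATF4 protein, a bZIP transcription factor, switches on genes for amino acid supply, redox balance and, under lasting stress, cell death. Because ATF4 is controlled largely at translation, the level of its mRNA is not a measure of its protein.

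ATF4 binds DNA with C/EBP partners at a composite element, and the RefSeq promoter windows of the genes were searched for its core because several of them moved together. The windows run from 250 bases before to 50 bases after the annotated start, on build GRCm38.p6. TGATGNAA was searched on both strands. Counted by gene, with any window of a gene sufficing, it occurred in 4 of the 10 genes. It also occurred in 15 of the 42 genes with a window from a wider pathway list of 55. Counted by window, it occurred in 3.97% of all 32851 windows and in 2.31% of the 10437 windows of genes tested here. It was 1 of 5 motifs searched and was kept with the matches in view, so these shares describe a chosen motif. The others occurred in 2 genes (TGACGNAA and TGATGCAA), 1 gene (TGACGCAA) and 0 genes (TGACGTCA), against 2.95%, 0.623%, 0.968% and 3.27% of the 10437 windows. TGATGCAA is one spelling of TGATGNAA, and TGACGCAA one of TGACGNAA. The 4 windows are shown 5′ to 3′ on the strand of the gene, with the matching letters in capitals. They lie at chr1:191183284-191183583 for Atf3 (minus strand), chr2:152344011-152344310 for Trib3 (minus strand), chr2:119350992-119351291 for Chac1 (plus strand) and chr6:7693160-7693459 for Asns (minus strand).
Atf3: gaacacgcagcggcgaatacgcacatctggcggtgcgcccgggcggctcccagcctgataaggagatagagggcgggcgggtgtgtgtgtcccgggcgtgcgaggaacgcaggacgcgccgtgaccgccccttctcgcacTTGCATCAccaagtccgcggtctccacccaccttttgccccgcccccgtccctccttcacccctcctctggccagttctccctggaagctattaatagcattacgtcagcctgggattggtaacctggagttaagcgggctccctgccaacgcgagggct
Trib3: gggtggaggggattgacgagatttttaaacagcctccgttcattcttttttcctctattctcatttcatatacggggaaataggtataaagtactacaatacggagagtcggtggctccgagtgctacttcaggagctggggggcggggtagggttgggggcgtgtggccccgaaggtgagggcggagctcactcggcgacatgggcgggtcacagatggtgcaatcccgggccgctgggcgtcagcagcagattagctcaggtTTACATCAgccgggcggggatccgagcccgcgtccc
Chac1: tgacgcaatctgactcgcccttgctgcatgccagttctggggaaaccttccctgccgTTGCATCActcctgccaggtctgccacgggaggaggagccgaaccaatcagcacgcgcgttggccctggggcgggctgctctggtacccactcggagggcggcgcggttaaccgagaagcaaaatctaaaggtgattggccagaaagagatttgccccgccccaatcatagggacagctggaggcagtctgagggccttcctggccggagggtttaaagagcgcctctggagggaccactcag
Asns: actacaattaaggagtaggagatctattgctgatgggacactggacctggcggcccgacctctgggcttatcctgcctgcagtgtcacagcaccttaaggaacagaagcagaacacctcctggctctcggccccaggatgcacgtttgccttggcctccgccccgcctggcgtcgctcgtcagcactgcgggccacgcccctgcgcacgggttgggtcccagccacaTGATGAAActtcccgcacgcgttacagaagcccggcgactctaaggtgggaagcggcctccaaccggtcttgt
The match lay 110 bases before the start in Atf3, 193 before it in Chac1 and 14 after it in Trib3, each on the opposite strand. In Asns it lay 23 bases before the start on the strand of the gene. A match in these letters is a description and not a binding site.

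The libraries expressed markers listed for microglia and macrophages together, which do not tell these cell types apart. Of 10 such markers, 9 were at 1 TPM (the length-scaled share of a library's transcripts) or more in every library. Cx3cr1 was close to that cut, at 1.04 TPM in its lowest and 4.57 TPM in its highest library. The exception was Aif1, with 0.07 TPM in its lowest and 1.36 TPM in its highest library. The summed level of the 10 markers was lowest in LPS+Pilo libraries (2845 to 2906 TPM), higher in LPS libraries (3040 to 3137 TPM) and highest in Control libraries (3460 to 3563 TPM). Cd68, Tyrobp and Fcer1g made up most of that sum, and single markers did not all follow it: Itgam stood at 27.9 to 32.8 TPM in LPS+Pilo, 21.5 to 42.5 TPM in LPS and 8.4 to 14.2 TPM in Control libraries. Other cell types were represented by 28 markers, of which 25 stayed under 1 TPM in every library and 13 of them were listed at 0. The others were Aldoc, Mbp and, in Control replicate 1 alone, the T cell gene Cd3d at 3.1 TPM. Some libraries stood at the edge of their group across the whole table. LPS replicate 3 was the lowest LPS library for 66.31% of all genes tested and for 10 of the 10 ATF4 genes. Control replicate 1 was the highest Control library for 62.65% of all genes and for 9 of the 10. Control replicate 2 was the lowest Control library for 60.51% of all genes and for 8 of the 10. LPS replicate 1 was the highest LPS library for 41.09% of all genes and for 8 of the 10. LPS+Pilo replicate 2 was the lowest of its group for 43.21% of all genes and for 9 of the 10. The part of these library and marker shifts in the results was not tested, and calls that depend on a library are given with and without it.

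Relative to Control, Trib3, Asns, Ddit3 and Mthfd2 rose in LPS-treated cells, and these 4 and also Atf4 and Chac1 rose in LPS+Pilo cells. None of the 10 genes passed the test between LPS+Pilo and LPS. Differences were tested with limma on log2(TPM + 1), with p-values adjusted by the Benjamini-Hochberg method over all 11260 genes, and a gene passed below an adjusted p of 0.05. In LPS against Control, 4 of 10 passed as higher and 0 as lower, while 7.76% of all genes tested passed, 4.12% as higher and 3.64% as lower. In LPS+Pilo against Control, 6 of 10 passed as higher and 0 as lower, while 10.2% of all genes passed, 4.85% as higher and 5.3% as lower. In LPS+Pilo against LPS, 0 of 10 passed and 1 had an unadjusted p under 0.05, while 0.0444% of all genes passed (0.00888% as higher and 0.0355% as lower) and 6.76% had such a p. The median log2 fold change of the 10 genes was 0.58 in LPS against Control and 0.63 in LPS+Pilo against Control, where all genes had medians of 0.07 and 0.02. It was 0.15 in LPS+Pilo against LPS, beside -0.05 over all genes. As the 10 genes were chosen with earlier results of these data known, these counts and medians describe a chosen set. The count in LPS against Control was 2 (Trib3 and Asns) without LPS+Pilo replicate 3, LPS replicate 1, LPS replicate 2, Control replicate 2 or Control replicate 3, 5 without LPS replicate 3 and 6 without Control replicate 1. The count in LPS+Pilo against Control was 3 (Trib3, Asns and Ddit3) without LPS+Pilo replicate 2, LPS+Pilo replicate 3 or Control replicate 3. The comparisons share libraries, so their values stand side by side and are not independent.

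**Figure D1:**
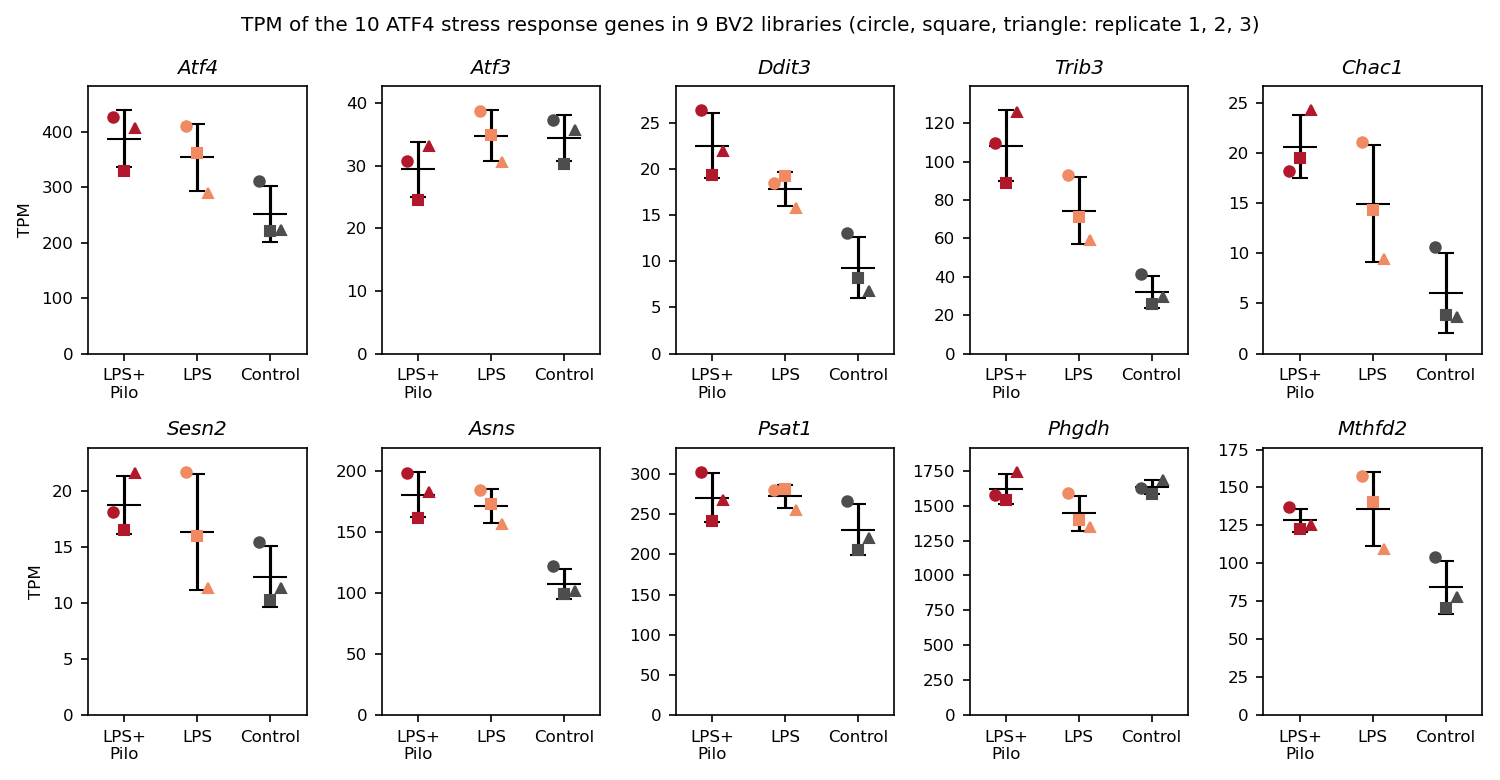
TPM of each of the 10 ATF4 pathway genes in the LPS+Pilo, LPS and Control libraries, from left to right in each panel. Bars are group means with SD (n = 3), and circles, squares and triangles are replicates 1, 2 and 3. Trib3 stood at 89.1 to 126 TPM in LPS+Pilo, 59 to 93.3 TPM in LPS and 25.7 to 41.3 TPM in Control libraries, while Atf3 and Phgdh overlapped between all groups.

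Among the transcription factors, Atf4 itself stood at 426, 329 and 407 TPM in LPS+Pilo libraries, 410, 361 and 290 TPM in LPS libraries and 310, 220 and 223 TPM in Control libraries. The LPS+Pilo libraries did not overlap Control, whereas LPS replicate 3 fell below Control replicate 1. Atf4 rose in LPS+Pilo against Control by a log2 fold change of 0.63 ± 0.17 (SE; limma, adjusted p = 0.0455). The LPS against Control value was 0.50 ± 0.17 (adjusted p = 0.118), which did not pass. The LPS+Pilo against LPS estimate was 0.14, with a 95% interval of -0.25 to 0.52. The call against Control was narrow. It was lost without LPS+Pilo replicate 1 (adjusted p = 0.148), LPS+Pilo replicate 2 (0.0538), LPS+Pilo replicate 3 (0.14), LPS replicate 2 (0.0661), Control replicate 2 (0.123) or Control replicate 3 (0.154), and without Control replicate 1 Atf4 passed in LPS against Control too (0.0324). The LPS+Pilo call was also lost with no filter on low values (0.114), with quantile normalization (0.0665) and with no trend in the variance prior (0.0687).

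Ddit3 encodes CHOP, the transcription factor tied to cell death under lasting stress. It stood at 26.3, 19.3 and 21.9 TPM in LPS+Pilo libraries, 18.5, 19.2 and 15.8 TPM in LPS libraries and 13.1, 8.14 and 6.73 TPM in Control libraries. No group overlapped another, although the lowest LPS+Pilo library and the highest LPS library were close. Ddit3 rose in LPS+Pilo against Control by 1.23 ± 0.21 on the log2 scale (limma, adjusted p = 0.00633) and in LPS against Control by 0.91 ± 0.21 (adjusted p = 0.0305). The LPS+Pilo and LPS groups differed by 0.31, with a 95% interval of -0.16 to 0.79, which did not pass (adjusted p = 0.841). Ddit3 was the 1 gene of the 10 whose LPS+Pilo libraries all lay above the LPS libraries, as did 5.58% of all genes. The call in LPS was lost without LPS+Pilo replicate 3 (adjusted p = 0.0548), LPS replicate 1 (0.0949), LPS replicate 2 (0.108), Control replicate 2 (0.092) or Control replicate 3 (0.114), with no filter on low values (0.0768), and with only the LPS and Control libraries fitted (0.0841). Ddit3 overlaps the opposite-strand gene Mars by 68 bases in GENCODE M21. Mars stood at 90.6 to 117 TPM, and the strand setting of the authors' quantification is not given in the sources used here.

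Atf3, a stress-induced repressor and activator of the same bZIP family, stood at 30.7, 24.5 and 33 TPM in LPS+Pilo libraries, 38.7, 34.9 and 30.6 TPM in LPS libraries and 37.2, 30.3 and 35.7 TPM in Control libraries. All 3 groups overlapped. Its log2 fold change was 0.01 in LPS against Control (limma, adjusted p = 0.968) and -0.22 in LPS+Pilo against Control (adjusted p = 0.381), and it passed in neither. Atf3 has a motif match, as do Trib3, Chac1 and Asns, which passed in LPS+Pilo against Control. Atf4, Ddit3 and Mthfd2 passed there too and have no match. A link between matches and change was not tested. In these terms Atf3 was a gene with a match that did not pass. Between LPS+Pilo and LPS the log2 fold change of Atf3 was -0.24, with a 95% interval of -0.55 to 0.08. The LPS against Control value turned to -0.10 when each library was centred on its median.

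Trib3, a pseudokinase that is induced by ATF4 and CHOP and feeds back on both, was higher in both treated groups than in Control. It stood at 110, 89.1 and 126 TPM in LPS+Pilo libraries, 93.3, 71.1 and 59 TPM in LPS libraries and 41.3, 25.7 and 29.3 TPM in Control libraries. Both treated groups lay wholly above Control, and LPS replicate 1 lay above LPS+Pilo replicate 2. Trib3 rose by 1.74 ± 0.21 on the log2 scale in LPS+Pilo against Control (limma, adjusted p = 0.000896) and by 1.19 ± 0.21 in LPS against Control (adjusted p = 0.00879). Between LPS+Pilo and LPS it was 0.55 ± 0.21, the only difference of the 10 with an unadjusted p under 0.05 (0.0288), and it did not pass (adjusted p = 0.651). Both calls against Control held under each of 18 other settings.

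Chac1, an enzyme that degrades glutathione, had the lowest Control levels of the 10. It stood at 18.2, 19.5 and 24.3 TPM in LPS+Pilo libraries, 21.1, 14.4 and 9.42 TPM in LPS libraries and 10.7, 3.87 and 3.62 TPM in Control libraries. LPS replicate 3 lay below Control replicate 1, both among the libraries described above as extremes of their groups. Chac1 rose by 1.75 ± 0.37 in LPS+Pilo against Control (limma, adjusted p = 0.0154). In LPS against Control the estimate of 1.25 ± 0.37 did not pass (adjusted p = 0.0739), but it passed without LPS replicate 3 (0.0395) or without Control replicate 1 (0.0071), and with median centring (0.0448) or quantile normalization (0.0426). The LPS+Pilo call was lost without LPS+Pilo replicate 2 (0.0542), LPS+Pilo replicate 3 (0.0639) or Control replicate 3 (0.0628), and with no filter on low values (0.0531). Between LPS+Pilo and LPS it was 0.50, with a 95% interval of -0.33 to 1.32.

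Sesn2, a leucine-sensing inhibitor of mTORC1, averaged 18.7 ± 2.6 TPM in LPS+Pilo libraries, 16.4 ± 5.17 TPM in LPS libraries and 12.3 ± 2.71 TPM in Control libraries (SD, n = 3 each). Its LPS+Pilo libraries (16.5 to 21.6 TPM) lay above its Control libraries (10.3 to 15.4 TPM), but the difference of 0.57 ± 0.23 on the log2 scale did not pass (limma, adjusted p = 0.156). LPS against Control gave 0.36 (adjusted p = 0.389), and LPS+Pilo against LPS gave 0.22, with a 95% interval of -0.29 to 0.73. It was the 1 gene among the 7 lying wholly above Control in LPS+Pilo that was not called, and 14.9% of all genes lay wholly above Control in that comparison. For LPS against Control, 4 of the 10 lay wholly above Control, as did 11.2% of all genes.

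**Figure D2:**
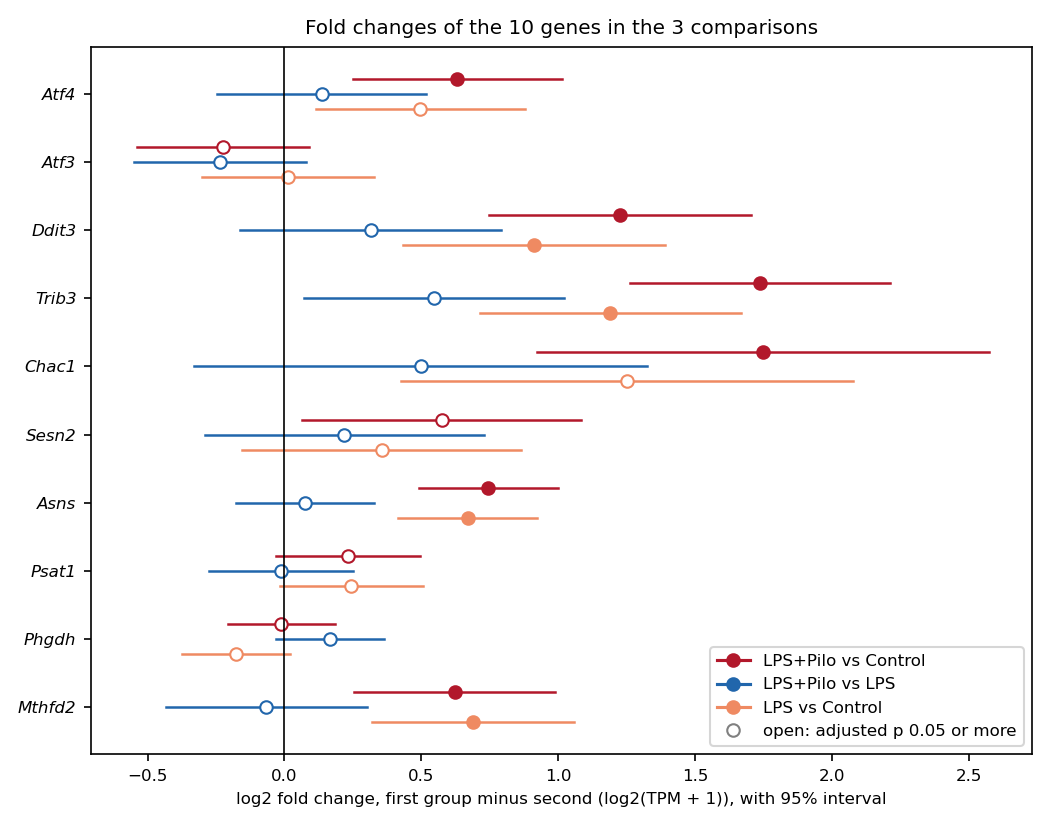
Log2 fold change of each gene in LPS against Control, LPS+Pilo against LPS and LPS+Pilo against Control, on the log2(TPM + 1) scale with 95% limma intervals. Trib3 reached 1.74 and Chac1 1.75 in LPS+Pilo against Control, while no gene passed in LPS+Pilo against LPS.

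Asns makes asparagine and carries the motif match closest before a start, at 23 bases. It stood at 198, 161 and 183 TPM in LPS+Pilo libraries, 184, 173 and 156 TPM in LPS libraries and 122, 99.2 and 101 TPM in Control libraries. Both treated groups lay wholly above Control and overlapped each other. Asns rose by 0.74 ± 0.11 in LPS+Pilo against Control (limma, adjusted p = 0.00321) and by 0.67 ± 0.11 in LPS against Control (adjusted p = 0.00677), and both calls held under all 18 other settings. LPS+Pilo and LPS differed by 0.08, with a 95% interval of -0.18 to 0.33.

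Mthfd2, the mitochondrial folate enzyme of one-carbon metabolism, stood at 137, 123 and 125 TPM in LPS+Pilo libraries, 158, 140 and 109 TPM in LPS libraries and 104, 70.4 and 77.9 TPM in Control libraries. Every treated library lay above every Control library. Mthfd2 rose by 0.62 ± 0.16 in LPS+Pilo against Control (limma, adjusted p = 0.0409) and by 0.69 ± 0.16 in LPS against Control (adjusted p = 0.0328). Both calls were narrow. The LPS+Pilo against Control call was lost without any of LPS+Pilo replicates 1 (0.132), 2 (0.0974) and 3 (0.104), LPS replicate 2 (0.0607) and Control replicates 2 (0.115) and 3 (0.135). The LPS against Control call was lost without any of LPS+Pilo replicates 1 (0.0513), 2 (0.0552) and 3 (0.0567), LPS replicates 1 (0.109) and 2 (0.112) and Control replicates 2 (0.104) and 3 (0.123). With no filter on low values Mthfd2 passed in neither (0.101 in LPS+Pilo and 0.0833 in LPS), nor with no trend in the variance prior (0.0619 and 0.051), and with only the LPS and Control libraries fitted it did not pass in LPS (0.0968). LPS+Pilo and LPS differed by -0.07, with a 95% interval of -0.43 to 0.30.

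Of the serine synthesis enzymes, Phgdh and Psat1 passed in no comparison. Phgdh, which commits glycolytic carbon to serine, was by far the most abundant at 1621 ± 107 TPM in LPS+Pilo, 1446 ± 126 TPM in LPS and 1632 ± 51.6 TPM in Control libraries (SD, n = 3 each). Its log2 fold change was -0.18 ± 0.09 in LPS against Control (limma, adjusted p = 0.266) and -0.01 in LPS+Pilo against Control (adjusted p = 0.957). Psat1, the next enzyme of the route, averaged 271 ± 30.8 TPM in LPS+Pilo, 272 ± 14.6 TPM in LPS and 231 ± 32 TPM in Control libraries, with 0.24 in LPS against Control (adjusted p = 0.254) and 0.23 in LPS+Pilo against Control (adjusted p = 0.266). Between LPS+Pilo and LPS, Phgdh stood at 0.17 with a 95% interval of -0.03 to 0.36, and Psat1 at -0.01 with one of -0.27 to 0.25. Psph, the last enzyme of the route and a gene of the wider list, passed in both, at 1.26 ± 0.13 in LPS+Pilo against Control (adjusted p = 0.000254) and 0.74 ± 0.13 in LPS against Control (adjusted p = 0.00707).

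By TPM, which is scaled for length, the order of mean level in Control was Phgdh, Atf4, Psat1, Asns, Mthfd2, Atf3, Trib3, Sesn2, Ddit3 and Chac1. Neighbours whose Control libraries overlapped were Atf4 with Psat1, Asns with Mthfd2, Atf3 with Trib3, Sesn2 with Ddit3 and Ddit3 with Chac1. In LPS+Pilo libraries Trib3, at 108 ± 18.5 TPM, stood well above Atf3, at 29.4 ± 4.39 TPM (SD, n = 3 each), and its range overlapped that of Mthfd2.

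**Figure D3:**
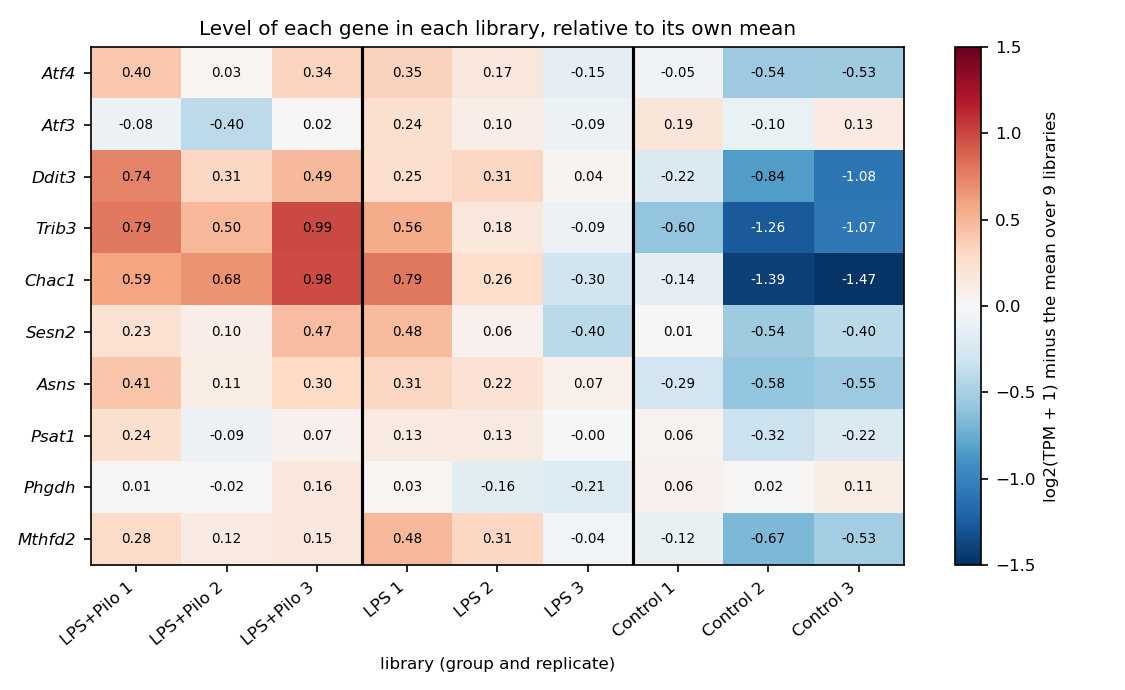
Log2(TPM + 1) of each gene in each library, as the difference from the gene's mean over all 9 libraries, with LPS+Pilo, LPS and Control libraries from left to right. LPS replicate 3 was the lowest LPS library for all 10 genes and Control replicate 1 the highest Control library for 9. LPS replicate 1 was the highest LPS library for 8 genes and Control replicate 2 the lowest Control library for 8.

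Of all genes tested, Trib3 was most like Chac1, which of the 10 genes had the widest spread of group means (1.75 on the log2 scale). Likeness was the root mean square difference of log2(TPM + 1) over the 9 libraries, each gene set to its own mean. It was 0.25 for Trib3, 0.29 for Glipr2, 0.32 for Gadd45a and 0.33 for Slc6a12, and the median over all genes was 0.84. Of the other ATF4 genes, Ddit3 came at rank 16 (0.38), Mthfd2 at 217, Atf4 at 232, Asns at 243 and Sesn2 at 265 of 11260. Psat1 came at rank 2117, Phgdh at 6550 and Atf3 at 7430. These are descriptions of likeness in level over libraries that share groups.

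The wider list held 55 further genes of the response, of which 49 were tested. It too was chosen with earlier results of these data known, so its counts and medians describe a chosen set. In LPS against Control 8 of the 49 rose and 0 fell, beside 4.12% of all genes that rose, and the median log2 fold change was 0.37, beside 0.07 over all genes. The 8 became 17 without LPS replicate 3, 19 without Control replicate 1, 14 with quantile normalization and 6 or 7 without any other library. Against Control, LPS+Pilo libraries had 15 that rose and 0 that fell, beside 4.85% of all genes that rose, with a median of 0.34 beside 0.02 over all genes. Between LPS+Pilo and LPS limma called 0, and 3 of the 49 had an unadjusted p under 0.05, beside 6.76% of all genes, with a median of 0.04 beside -0.05 over all genes. Among the stress effectors and transcription factors, Gdf15, a secreted stress cytokine, averaged 87.6 ± 6.35 TPM in LPS+Pilo, 78.9 ± 18.1 TPM in LPS and 21.2 ± 2.91 TPM in Control libraries (SD, n = 3 each). It rose by 2.00 ± 0.16 in LPS+Pilo and by 1.83 ± 0.16 in LPS, both against Control (adjusted p = 6.71e-05 and 0.000152). Nupr1 (1.08 and 0.91) and Atf5 (0.69 and 0.81) rose in both comparisons too, as did Eif4ebp1, a repressor of translation initiation (0.97 and 0.60), and Cebpb, a C/EBP partner factor, rose in LPS+Pilo (1.17 ± 0.21, adjusted p = 0.00829).

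Among the amino acid transporters, Slc7a11, the cystine importer, averaged 9.44 ± 0.24 TPM in LPS+Pilo, 8.53 ± 3.44 TPM in LPS and 1.08 ± 0.62 TPM in Control libraries (SD, n = 3 each). It rose by 2.37 ± 0.29 in LPS+Pilo and by 2.16 ± 0.29 in LPS, both against Control (adjusted p = 0.000937 and 0.00195). Of 8 transporters tested, 4 rose in LPS+Pilo and 2 in LPS, beside 4.85% and 4.12% of all genes. Slc6a9 (1.08 ± 0.18, adjusted p = 0.00598) and Slc3a2 (0.59 ± 0.10, adjusted p = 0.00468) were among the 4 in LPS+Pilo. In LPS against Control, Slc3a2 at 0.39 ± 0.10 (adjusted p = 0.0383) was lost when any library other than LPS replicate 3 was left out (adjusted p = 0.0535 to 0.143). Of 13 tRNA synthetase and export genes, 1 rose in LPS+Pilo and 1 in LPS against Control, beside 4.85% and 4.12% of all genes. This was Sars, at 0.60 ± 0.09 in LPS+Pilo (adjusted p = 0.0028) and 0.40 ± 0.09 in LPS (adjusted p = 0.0235). The LPS call was lost without LPS replicate 1 (0.0752), LPS replicate 2 (0.0751), Control replicate 2 (0.07) or Control replicate 3 (0.0993). In LPS against Control 13 of the 13 estimates were positive, as were 58.91% over all genes. Their median was 0.40, beside 0.07 over all genes, and 8 had an unadjusted p under 0.05 by limma. In LPS+Pilo against Control 12 were positive and 1 negative, with a median of 0.33 beside 0.02. Aldh1l2 (1.00 ± 0.22, adjusted p = 0.0192) and Gpt2 (0.74 ± 0.18, adjusted p = 0.0311) rose in LPS+Pilo against Control. Both calls were lost without LPS+Pilo replicate 1 (0.0762 for Aldh1l2 and 0.107 for Gpt2), 2 (0.0643 and 0.081) or 3 (0.0524 and 0.098), and without Control replicate 2 (0.0613 and 0.0914) or 3 (0.0631 and 0.111), and with no filter on low values (0.0572 and 0.0681). In LPS against Control, Slc3a2 and Sars were also lost with median centring (0.0864 and 0.112), with only the LPS and Control libraries fitted (0.106 and 0.0535) and with no trend in the variance prior (0.0792 and 0.0564), and Slc3a2 with no filter (0.0689) and with the replicate block (0.0563).

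Of the 8 genes of the eIF2 switch, 1 rose in LPS+Pilo against Control, beside 4.85% of all genes. In LPS against Control and in LPS+Pilo against LPS 0 of the 8 passed, beside 7.76% and 0.0444% of all genes. Their median was 0.08 in LPS+Pilo against Control, 0.15 in LPS against Control and -0.06 in LPS+Pilo against LPS. Over all genes it was 0.02, 0.07 and -0.05. This was Ppp1r15a, which encodes GADD34, a subunit of the phosphatase that removes the phosphate from eIF2. Ppp1r15a averaged 21.6 ± 1.32 TPM in LPS+Pilo, 17.6 ± 2.67 TPM in LPS and 14.1 ± 0.98 TPM in Control libraries (SD, n = 3 each). It rose by 0.58 ± 0.13 in LPS+Pilo against Control (adjusted p = 0.0201), a call lost without LPS+Pilo replicate 2 (0.0736), LPS+Pilo replicate 3 (0.0851) or Control replicate 3 (0.0898). It did not pass in LPS against Control (0.29, adjusted p = 0.214) or in LPS+Pilo against LPS (0.29, adjusted p = 0.747). Eif2ak2, the double-stranded RNA kinase PKR, stood at 9.42, 4.95 and 6.12 TPM in LPS+Pilo, 6.71, 13.2 and 4.66 TPM in LPS and 6.82, 4.01 and 5.97 TPM in Control libraries, and passed in no comparison (adjusted p = 0.525 in LPS against Control, 0.963 in LPS+Pilo against LPS and 0.739 in LPS+Pilo against Control).

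Other stress pathways were read from a chaperone list and an antioxidant list, and the difference between lists was not tested. Both lists were chosen with earlier results of these data known. Of 13 endoplasmic reticulum chaperone genes, which serve the unfolded protein response, 0 passed in LPS against Control, where 1 had an unadjusted p under 0.05 by limma, as did 22.7% of all genes. Of the 13, 2 fell in LPS+Pilo against Control, beside 5.3% of all genes. They were Calr, by 0.60 ± 0.08 (adjusted p = 0.00182), and Creld2, by 0.41 ± 0.09 (adjusted p = 0.0152). The Creld2 call was lost without LPS+Pilo replicate 2 (0.0634). In LPS+Pilo against LPS limma called 0 of the 13, while 13 of 13 estimates were negative, with a median of -0.33, and 7 had an unadjusted p under 0.05. Over all genes 39.72% of estimates were positive in that comparison, with a median of -0.05, and 6.76% had an unadjusted p under 0.05. In the same comparison limma called 0 of 11 tested NRF2 antioxidant genes. Their estimates were negative for 10 and positive for 1, with a median of -0.19, and 2 lower and 1 higher had an unadjusted p under 0.05. The NRF2 median in LPS against Control was 0.32, beside 0.07 over all genes. There 7 of the 11, all higher, had an unadjusted p under 0.05, as did 22.7% of all genes. Of the 11, 2 rose in LPS against Control, beside 4.12% of all genes. They were Gsr, by 0.80 ± 0.16 (adjusted p = 0.0162), and Hmox1, by 0.32 ± 0.08 (adjusted p = 0.0385). Both calls were lost without LPS replicate 1 (0.064 for Gsr and 0.109 for Hmox1), LPS replicate 2 (0.0677 and 0.0785), Control replicate 2 (0.057 and 0.111) or Control replicate 3 (0.0736 and 0.153), and that of Hmox1 also without LPS+Pilo replicate 1 (0.0598), 2 (0.0597) or 3 (0.0657). In LPS+Pilo against Control 1 rose, beside 4.85% of all genes. This was Gsr, by 0.67 ± 0.16 (adjusted p = 0.0275). The call was lost without LPS+Pilo replicate 1 (0.0982), 2 (0.0774) or 3 (0.0781) or Control replicate 2 (0.0815) or 3 (0.108), and with no filter on low values (0.0684). The LPS calls of Gsr and Hmox1 were also lost with only the LPS and Control libraries fitted (0.061 and 0.102), and that of Hmox1 with median centring (0.269), with no trend in the variance prior (0.0924) and with the replicate block (0.0522).

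**Figure D4:**
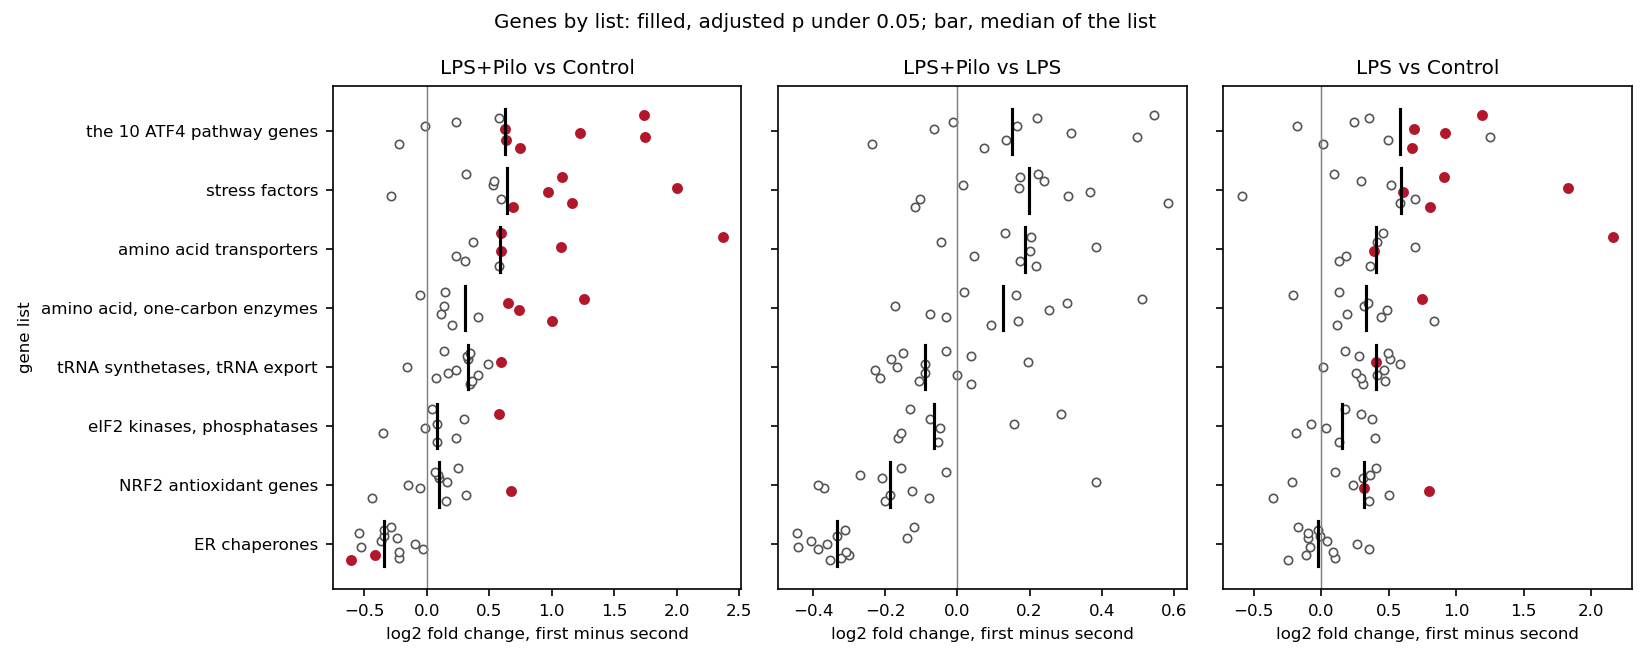
Log2 fold change of every tested gene of the 10 ATF4 pathway genes, the wider response list, the chaperones and the NRF2 genes in each comparison, with the list medians marked; the panels have different horizontal ranges. The chaperone median was -0.33 in LPS+Pilo against LPS, where that of the NRF2 genes was -0.19. In that comparison the median of the 10 ATF4 genes was 0.15 and that of all genes -0.05.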

How the data were processed

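RNA from 9 BV2 libraries was sequenced, and the authors deposited 1 table of TPM (a length-scaled share of each library's transcripts), with 55906 entries and 2 decimals. The submitters' processing notes name fastp 0.19.5, STAR 2.7.1a, DESeq2 1.24.0 and GRCm39. For the TPM the program, annotation, strand setting and filters were not given in the sources used here. TPM keeps no read depth, which leaves the depth of each library unknown and allows no counting interval. TPM is also relative, so a change in a few abundant transcripts moves all others.

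Genes were named by Ensembl ID from GENCODE M21, which matched 52081 entries. That annotation is on an earlier build, so no gene coordinates are printed, and promoter windows are RefSeq's on GRCm38.p6. A second Ddit3 entry, listed at 0 in every library, was set aside. Genes at 1 TPM or more in at least 3 of 9 libraries were kept, which left 11260. limma 3.58.1 (R 4.3.3) was fitted to log2(TPM + 1) over all 9 libraries with an intensity trend, and p-values were adjusted by the Benjamini-Hochberg method at 0.05. A fold change on this scale understates that of low genes. The fit had 6 residual degrees of freedom. It was also run on simulated data with noise drawn separately for each gene. That run held no shift shared by the genes of a library, so it cannot show how such shifts affect the calls. Counting tests were not used, because the table holds no counts.

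The 10 genes and the lists were chosen with earlier results of these data known. Besides the 10, the text names Eif2ak2, Ppp1r15a, up to 3 called genes of each role of the wider list by size of change (the largest uncalled one where none passed), up to 2 called genes of each other list and the 5 genes most like Chac1, of which 1 is not reported here. Eif4ebp1 was named beyond this rule after its values were seen. Alternatives changed the pseudocount, filter, scaling, groups fitted, trend, replicate block and libraries.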

Additional observations from a re-analysis of the deposited data

How the results depend on the processing

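Under 18 other settings, 1116 values of single genes were recomputed: 997 kept their direction and side of the threshold, 96 kept the direction only and lost the call, 6 gained a call and 17 changed sign. With no filter on low values, the 21250 genes above 0 in any library were tested. Of the 10 genes, 2 were then called in LPS against Control and 3 in LPS+Pilo against Control. In LPS+Pilo against LPS 1 of the 21250 was called. Fitting only the 2 groups compared called 2 of the 10 and 486 genes in LPS against Control, and 3 genes in LPS+Pilo against LPS, as did the fit with no trend (3). Median centring called 1389 genes in LPS against Control (518 higher and 871 lower, against 464 and 410 as reported) and 0 in LPS+Pilo against LPS; it moved the median of all genes in LPS against Control to -0.05, against 0.07 as reported. Quantile normalization called 1516, 1 and 1726 genes in LPS against Control, LPS+Pilo against LPS and LPS+Pilo against Control, and 14 of the wider list in LPS against Control. Atf3 in LPS against Control turned to -0.10 with median centring and -0.0489 with quantile normalization, and in LPS+Pilo against LPS Psat1 turned to 0.0705 and Mthfd2 to 0.0171 with median centring. The cause was not tested.

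Deviations from the group mean had r of 0.165, -0.225 and 0.158 between same-numbered LPS and Control libraries. Different-numbered LPS and Control libraries had r of -0.37 to 0.30. Same-numbered r was -0.0588 to 0.0648 between LPS+Pilo and LPS, and -0.0306 to 0.0962 between LPS+Pilo and Control. The labels do not say whether the replicate numbers pair the samples, and these values cannot decide it. With the replicate number as a block, 5, 0 and 6 of the 10 genes were called in LPS against Control, LPS+Pilo against LPS and LPS+Pilo against Control, and 808, 1 and 1064 genes in all, and Atf4 passed in LPS against Control (adjusted p = 0.0483).

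Leaving out 1 library at a time gave 414 to 1020, 0 to 6 and 642 to 1286 genes called in LPS against Control, LPS+Pilo against LPS and LPS+Pilo against Control, 2 to 6, 0 to 0 and 3 to 6 of the 10, and 6 to 19, 0 to 0 and 10 to 19 of the wider list. Signs changed for Atf3 in LPS against Control (-0.0726 to 0.0991), for Phgdh in LPS+Pilo against Control (-0.0641 to 0.0235), and in LPS+Pilo against LPS for Atf4 (-2e-04 to 0.25), Sesn2 (-0.0033 to 0.43), Psat1 (-0.0959 to 0.0672), Mthfd2 (-0.213 to 0.0499) and Eif2ak2 (-0.46 to 0.20), none of which passed there. Depth behind the TPM is unknown, so what it limits cannot be given.

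2 alternatives were added after seeing the data and support nothing here. Library weights in limma, whose estimation stopped before it converged, called 5396, 13 and 4993 genes, 9, 0 and 9 of the 10, and 40, 0 and 37 of the wider list, in the same order. Leaving out both Control replicate 1 and LPS replicate 3, which were picked after the values of the 10 genes had been seen, called 3586, 18 and 1967 genes, 8, 0 and 7 of the 10, and 37, 0 and 32 of the wider list; in LPS+Pilo against LPS, Atf4 then stood at -2e-04 and Sesn2 at -0.0033. Both raised the counts against Control.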

Other observations

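The level of each gene was also set against Atf4 within the same library, a measure chosen after the values had been seen. Trib3 stood at 0.258, 0.271 and 0.31 of the Atf4 TPM in LPS+Pilo libraries, 0.228, 0.197 and 0.204 in LPS libraries and 0.133, 0.117 and 0.132 in Control libraries, with no overlap between any groups. An exact two-sided permutation test gave p = 0.1 for each. The ratio was computed for 9 genes in 3 comparisons, 27 in all, and this permutation test cannot go below 0.1 with 3 libraries in each group. Over all genes, the ratio to Atf4 was higher without overlap for 1.23% in LPS+Pilo against LPS, 3.06% in LPS against Control and 2.34% in LPS+Pilo against Control, and lower without overlap for 16.9%, 41.6% and 61.5%. The Atf3 ratio went the other way, at 0.0721, 0.0746 and 0.0812 in LPS+Pilo, 0.0945, 0.0967 and 0.106 in LPS and 0.12, 0.138 and 0.16 in Control libraries, also with no overlap (exact permutation p = 0.1 each). The Mthfd2 ratio was lower without overlap in LPS+Pilo than in LPS (-0.20 on the log2 scale) and higher without overlap in LPS than in Control (0.20). Against Control, the ratios of Ddit3 (both comparisons) and Chac1 (LPS+Pilo) were higher without overlap and those of Phgdh (both) and Psat1 (LPS+Pilo) lower, and the remaining ratios overlapped.

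The wider list had no call in LPS+Pilo against LPS. The estimate of largest size in each of its roles was 0.58 ± 0.21 for Cebpb (limma, adjusted p = 0.599), 0.51 ± 0.13 for Psph (adjusted p = 0.4), 0.39 ± 0.18 for Slc6a9 (adjusted p = 0.763), 0.29 ± 0.13 for Ppp1r15a (adjusted p = 0.747) and -0.23 ± 0.14 for Lars (adjusted p = 0.829).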
